A study of Mus musculus with 31 samples.

Results

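The genes described here are the nuclear-encoded subunits of respiratory complexes II, III and IV and of complex V, the ATP synthase. They were taken by gene symbol (Sdha to Sdhd, Cyc1, the Uqcr genes, Cox4 to Cox8 and the Atp5 genes, without processed copies whose symbol ends in -ps) and number 49 of the 39017 genes in the count table. Complex II has 4 members, complex III 9, complex IV 18 and complex V 16. A further 2, Atp5s and Atp5sl, carry an Atp5 name but are not subunits. Atp5s encodes a protein like coupling factor B, and Atp5sl is Dmac2 in the gene annotation, a complex I assembly protein. The gene counted as Atp5l2 is annotated as a processed pseudogene of subunit g. Its symbol in the count table does not end in -ps. It is therefore kept among the 16 members of complex V, in the sums over 47 subunits and in the counts of calls. The subunits encoded by Ndufa4 and Usmg5 do not match the symbols and are not counted among the 49.

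Bulk polyA RNA-seq was made from 31 orthotopic mouse breast tumours of 2 models, 4T1, a mammary carcinoma line, grown in BALBc mice, and MT, grown in FVB mice, with all samples given as wild type. Within each model there were 4 arms. The combination received poly I:C and phenformin, the poly I:C arm poly I:C and PBS, the phenformin arm saline and phenformin, and the control arm saline and PBS. Poly I:C mimics viral double-stranded RNA and triggers innate immune sensors of RNA, and phenformin is a biguanide that inhibits respiratory complex I. There were 4 samples in each of the 8 groups except the 4T1 phenformin group, which had 3. Age, dose and timing are not given in the sources used here, and because the labels number replicates without naming animals, p-values measure the spread between these samples.

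Electrons enter the respiratory chain through complex I or through complex II, which is also the succinate dehydrogenase of the citric acid cycle, and pass through ubiquinone to complex III, cytochrome c and complex IV, which reduces oxygen. Complexes III and IV pump protons as they do so, and complex V uses the proton gradient to make ATP. All 4 subunits of complex II are encoded in the nucleus, whereas the other complexes join nuclear-encoded subunits to a few encoded by mitochondrial DNA.

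Libraries held 12160110 to 19849915 gene counts. The sample titles assign 15 libraries to 4T1 and 16 to MT, while the strain and cell line labels of the same samples name the opposite model (FVB on the 4T1 titles, BALBc on the MT titles), and the titles were followed. The levels given are CPM, counts scaled to library size. H2-Ea-ps, an MHC class II pseudogene, lay at 511 to 919 CPM in 4T1 control libraries and at 5.42 to 17.9 CPM in MT control libraries. Some libraries stood apart within their group. MT control replicates 1 to 3 held 173, 218 and 174 CPM of Sox10, a neural crest and mammary progenitor transcription factor, and MT control replicate 4 held 1.3 CPM. Krt5, a basal keratin, ran the other way, at 29.7, 21.4 and 23.6 CPM in replicates 1 to 3 and 2199 CPM in replicate 4. MT phenformin replicates 1 to 3 also exceeded 10 CPM of Sox10, and every MT poly I:C and MT combination library stayed at or below 3.06 CPM. In 4T1, 5 libraries exceeded 10 CPM of the muscle actin gene Acta1 and 3 exceeded 100 CPM of the immunoglobulin gene Igkc.

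Levels differed widely among the subunits. Levels per kilobase of exon were averaged over the means of the 8 groups, each group weighted equally. The highest and lowest members in complex II were Sdhd, a membrane anchor, at 87.2 CPM per kb and Sdhc, the other anchor, at 33.2 CPM per kb. In complex III they were the hinge subunit gene Uqcrh at 113.7 and the small subunit gene Uqcrq at 25.7 CPM per kb. In complex IV the highest was Cox6b1, the ubiquitous subunit VIb, at 209 CPM per kb, and the lowest member that passed the filter on low counts was its tissue-restricted counterpart Cox6b2 at 0.375 CPM per kb. In complex V they were Atp5a1, the F1 alpha subunit, at 235 CPM per kb and Atp5g2, one of 3 genes for subunit c of the rotor ring, at 0.237 CPM per kb. Near-identical pseudogene copies, counted for 13 members, limit some levels, since reads can be split between a gene and its copy. Cox7c, for subunit VIIc, had 7.14 ± 1.25 CPM in MT control tumours (SD, n = 4), while its copy Gm12338 had 96.7 ± 19.7 CPM. The levels of Cox7c, Atp5g1, Atp5l and Atp5h, whose copies together held more counts than the gene itself, are uncertain for this reason, and those of Uqcrb, Uqcr11, Atp5f1 and the other members with copies to a smaller degree.

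Summed over the 47 subunits, the level per library was lowest in the 4T1 poly I:C group and highest in MT controls. The sum was 5929 to 7205 CPM in MT combination, 5391 to 6186 CPM in MT poly I:C, 6003 to 6952 CPM in MT phenformin and 6934 to 8086 CPM in MT control tumours. In 4T1 tumours it was 4529 to 5094 CPM in combination, 4307 to 4567 CPM in poly I:C, 4946 to 5506 CPM in phenformin and 4698 to 5641 CPM in control libraries. The poly I:C libraries lay below all control libraries of their model in both models. Complex V took the largest part of each sum, at 3112 ± 207 CPM in MT poly I:C and 4265 ± 477 CPM in MT control tumours (SD, n = 4 each). The sums for complex II overlapped between these groups, at 475 to 503 CPM with poly I:C and 485 to 571 CPM in controls. In bulk tumour samples such as these, fewer cells of a type and less RNA per cell cannot be told apart.

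**Figure D1:**
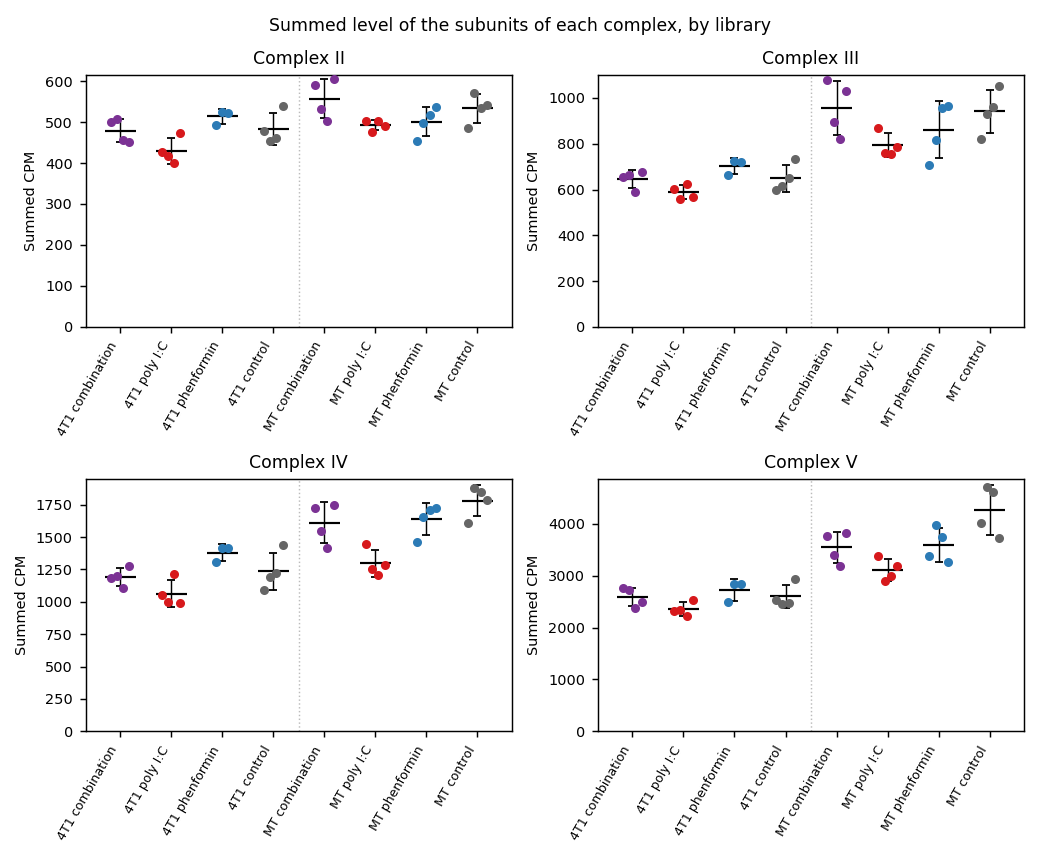
Summed CPM of the subunits of each complex (vertical axis) for the 8 groups (horizontal axis). Points are libraries, horizontal lines group means and error bars SD. For complex V the MT poly I:C libraries lie at 2898 to 3370.0 CPM, below the MT control libraries at 3717 to 4703 CPM.

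In MT tumours given poly I:C alone, some subunit genes of each of the 4 complexes were lower than in controls. These groups also differed in Sox10 and Krt5, and treatment cannot be told apart from that difference. Of 45 members tested, 15 were called lower than in controls and 0 higher (edgeR quasi-likelihood test, adjusted p under 0.05 over 17857 genes), where 11.1% of all genes tested were called lower and 8.52% higher (19.6% in all). At an unadjusted p under 0.05, 23 members were lower and 0 higher, where 19.5% of all genes were lower and 16.1% higher. The calls comprised 1 of 4 members of complex II, 4 of 9 of complex III, 3 of 15 tested of complex IV and 7 of 15 tested of complex V. The median log2 fold change over the members was -0.31, against 0.01 over all genes. Libraries of the poly I:C and control groups did not overlap for 19 members, all lower with poly I:C, where 12.2% of all genes were wholly lower and 12.8% wholly higher.

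Complex IV held the member with the smallest p. Cox6a1 (chr5:115345642-115348981, minus strand), the ubiquitous subunit VIa, had 93.5, 74.1, 84.7 and 84.7 CPM in MT poly I:C tumours, against 138, 150.4, 127 and 127 CPM in MT control tumours. All 4 poly I:C libraries lay below all 4 controls, and the log2 fold change was -0.67 ± 0.11 (SE), with an adjusted p of 0.00197. Cox4i1 (chr8:120668222-120674207, plus strand), the ubiquitous subunit IV, had 293, 246, 233 and 259 CPM with poly I:C, against 371, 511, 431 and 396 CPM in controls, a log2 fold change of -0.71 ± 0.12 (SE), with an adjusted p of 0.00268. Cox6b1, which joins the monomers of the dimeric complex, averaged 154 ± 15.4 CPM with poly I:C and 219.9 ± 18.3 CPM in controls (SD, n = 4 each), a log2 fold change of -0.50 ± 0.10 (SE), with an adjusted p of 0.00565. The remaining subunits of complex IV were not called, among them Cox5a, Cox5b and Cox7b with log2 fold changes of -0.15, -0.24 and -0.32.

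Complex V had the largest difference between these groups in summed CPM. Atp5f1 (chr3:105942698-105960099, minus strand), subunit b of the peripheral stalk that holds the catalytic head still, had 258, 231, 229 and 245 CPM in MT poly I:C tumours, against 432, 508, 452 and 334 CPM in MT controls. The groups did not overlap, and the log2 fold change was -0.83 ± 0.13 (SE), with an adjusted p of 0.00216. Atp5e, the epsilon subunit of the central stalk, had the largest called fold, at 79.3, 94.7, 70.4 and 73.2 CPM with poly I:C and 159.6, 209, 257 and 111 CPM in controls, a log2 fold change of -1.20 ± 0.27 (SE), with an adjusted p of 0.0101. The controls of Atp5e spread from 111 to 257 CPM, so its fold is less precise than the others. Atp5a1, the alpha subunit, averaged 702 ± 53.8 CPM with poly I:C and 1088 ± 180.3 CPM in controls (SD, n = 4 each), a log2 fold change of -0.62 ± 0.14 (SE), with an adjusted p of 0.00862. The catalytic beta subunit gene Atp5b was not called, at 909.8 ± 70.7 CPM with poly I:C and 1038 ± 125 CPM in controls and an adjusted p of 0.333. Of the rotor ring genes, Atp5g3 averaged 197 ± 8.3 CPM with poly I:C and 289 ± 22.9 CPM in controls, a log2 fold change of -0.54 ± 0.10 (SE), with an adjusted p of 0.00482. Atp5g1, the copy-rich ring gene, was also called, with a log2 fold change of -0.72 ± 0.18 (SE), with an adjusted p of 0.0149. The membrane subunit genes Atp5j2 (subunit f) and Atp5k (subunit e) had log2 fold changes of -0.50 ± 0.12 and -0.51 ± 0.11 (SE), with adjusted p-values of 0.0106 and 0.00845.

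In complex III the catalytic Rieske iron-sulphur protein and 3 small subunits were lower. Uqcr11 (chr10:80402997-80406830, minus strand), a small subunit, had 34.5, 29.8, 28 and 29.1 CPM in MT poly I:C tumours, against 39.7, 43.2, 44.8 and 44.1 CPM in MT controls, without overlap, and a log2 fold change of -0.48 ± 0.11 (SE), with an adjusted p of 0.00983. Uqcrb, a subunit near the ubiquinone site, and Uqcrq had log2 fold changes of -0.39 ± 0.09 and -0.49 ± 0.12 (SE), with adjusted p-values of 0.0111 and 0.0145. Uqcrfs1, the Rieske protein gene, averaged 73.4 ± 5.28 CPM with poly I:C and 109 ± 10.4 CPM in controls (SD, n = 4 each), a log2 fold change of -0.56 ± 0.15 (SE), with an adjusted p of 0.0186. The core subunit genes Uqcrc1 and Uqcrc2 had log2 fold changes of -0.10 and -0.03 and were not called. In complex II only Sdhc (chr1:171127165-171150603, minus strand) was called, at 96.5, 77.9, 91.3 and 92.1 CPM with poly I:C, against 120.1, 140.0, 126 and 112 CPM in controls, a log2 fold change of -0.46 ± 0.11 (SE), with an adjusted p of 0.0109. The catalytic subunit gene Sdha did not move beyond its spread, at 192 ± 12.8 CPM with poly I:C and 198 ± 19.3 CPM in controls. Sdhb averaged higher with poly I:C, at 105.6 ± 3.39 CPM against 88.0 ± 18.3 CPM in controls, and was not called. The counting strand is not given in the sources used here, and Cox4i1, Atp5f1, Atp5a1 and Uqcrb each overlap a gene on the opposite strand, so part of their counts could come from it.

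**Figure D2:**
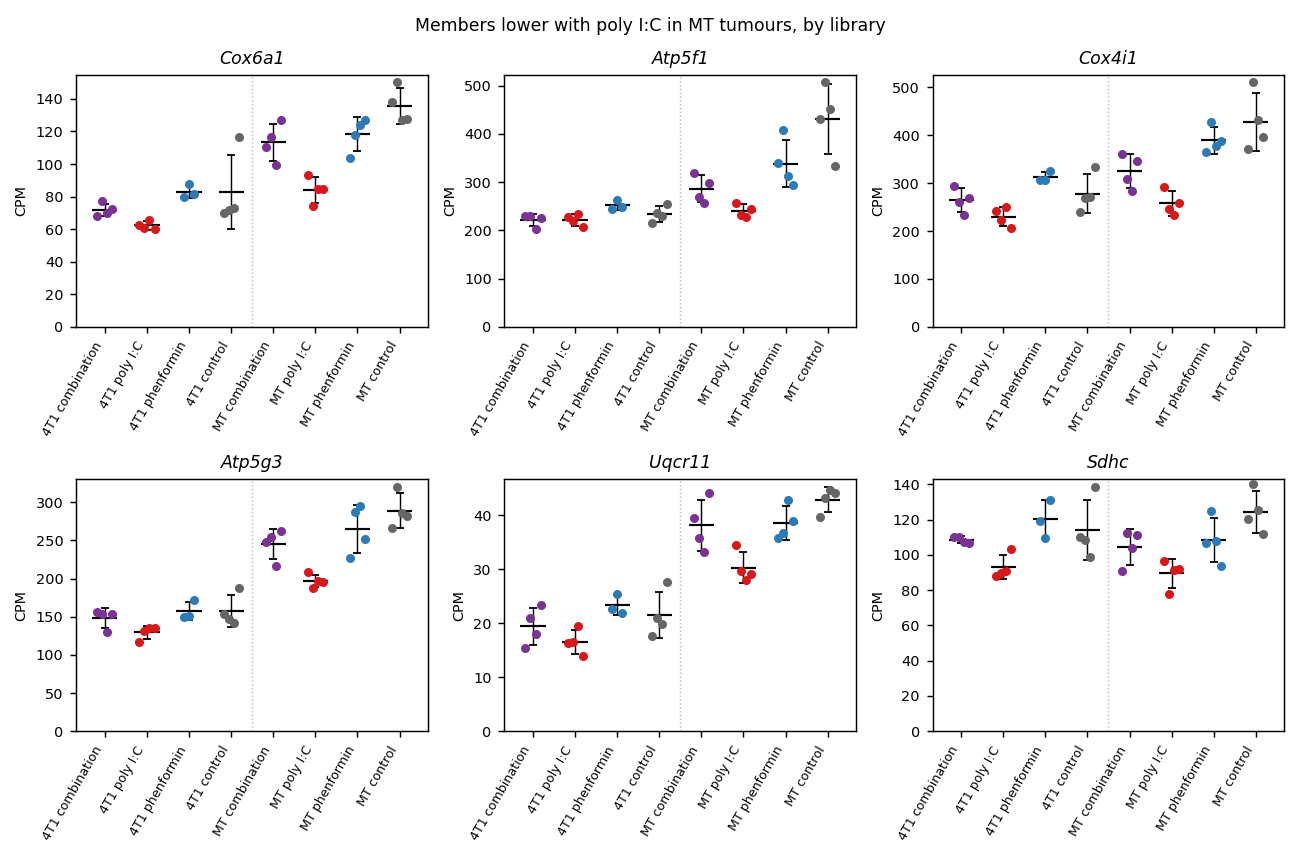
CPM (vertical axis) of 6 members called lower with poly I:C in MT tumours, in the 8 groups (horizontal axis). Points are libraries, horizontal lines means and error bars SD, and in each panel the MT poly I:C points lie below the MT control points.

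The Sox10 level of the libraries and markers of other cells moved with these groups. The MT poly I:C libraries held at most 2.25 CPM of Sox10 and 1311 to 2452 CPM of Krt5. Control replicates 1 to 3 were high in Sox10 and low in Krt5, and replicate 4 was like the poly I:C libraries. Treatment and this state of the tumours therefore cannot be told apart here. Without the 6 MT libraries above 10 CPM of Sox10, 1 control and 1 phenformin library were left. Their spread was assumed to equal that of the other groups. The median log2 fold change of the members was then -0.37, and the median over all genes was not given. With 1 control left, this fit cannot decide whether the calls hold. The remaining control, replicate 4, lay above every poly I:C library for 34 of the 45 members tested. It lay below every one for 3 (Sdha, Cox4i2 and Atp5sl) and within their range for 8. Of the 15 called members, it lay above every poly I:C library for 15, and it was the lowest control for 8. These counts rest on 1 library and on members that vary together. The share over all genes was not computed, so they are not a result about the members. When each library's log2 Krt5/Sox10 ratio entered the fit, 12 members were called (share of all genes not given), all lower, of which 9 were among the 15. Beside this, 5 of 5 macrophage markers were called higher with poly I:C, their summed level lying at 1022 to 1218 CPM with poly I:C and 310.6 to 413 CPM in controls. Fibroblast markers summed to 1557 to 1889 CPM with poly I:C and 609 to 1092 CPM in controls, with 2 of 5 called higher. Endothelial and mural markers summed to 340.6 to 463.7 CPM with poly I:C and 124.6 to 229.4 CPM in controls (4 of 6 higher), and neutrophil markers to 120.9 to 373.9 CPM with poly I:C and 19.4 to 2465 CPM in controls. Of the 6 neutrophil markers 4 were called higher, while their sum was higher in 3 of the 4 controls than in any poly I:C library, and 1 marker had a log2 fold change of -3.47, lower at an unadjusted p under 0.05 and not called. Adipocyte markers summed to 226.1 to 1043 CPM with poly I:C and 54.5 to 235.5 CPM in controls (1 of 6 higher), and no T cell or plasma cell marker was called. No defining marker was at 0 in either group, and the part of these cell types in the result was not tested. Scaling by library totals alone kept 14 of the 15 calls, and the share of all called genes that were higher was then 56.7%, against 43.5% with TMM scaling, and the median of all genes 0.11. Leaving out 1 library at a time gave 13 to 17 calls, with Uqcrfs1 lost in 3 of 8 fits, Atp5g1 in 2 and Uqcrq in 1.

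**Figure D3:**
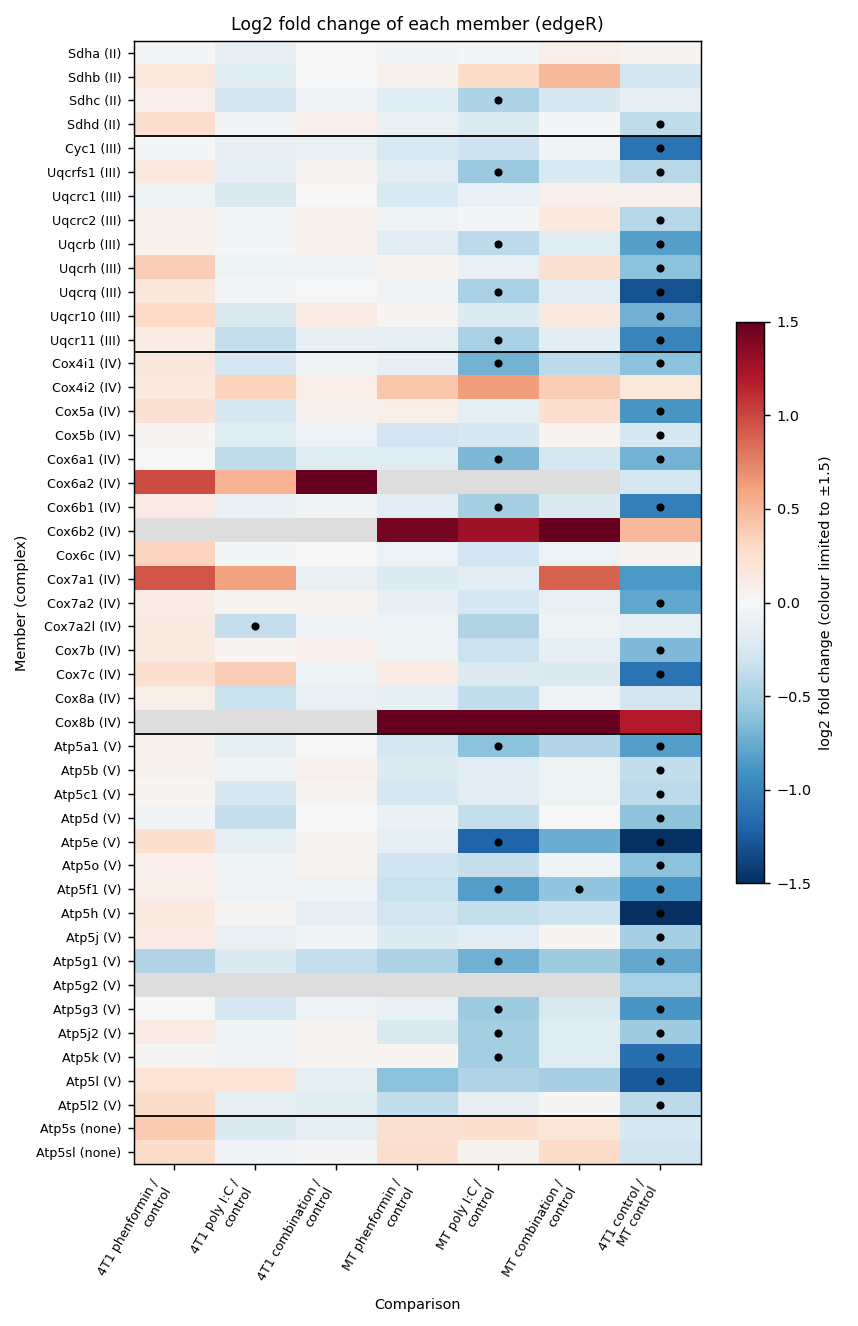
Log2 fold change (colour, limited to ±1.5) of each member tested (rows, with its complex) in 7 comparisons (columns). Black dots mark calls at adjusted p under 0.05 and grey cells members not tested. Dots gather in the columns for MT poly I:C (15 calls) and for 4T1 control over MT control (32 calls).

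Promoter sequences are shown for the members called lower together in MT poly I:C tumours that hold a core motif of NRF1, GABPA or YY1, factors long known to act on respiratory chain genes. RefSeq promoters (GRCm38.p6, 250 bases before to 50 after the gene start) were matched for 37 of the 49 members. Of the 15 called members, 10 had one, and 4 of these 10 held at least 1 motif, against 9 of the 27 matched members that were not called. Capitals mark the motif, and all 4 genes lie on the minus strand, so that each line reads 5′ to 3′ along the gene. The NRF1 core GCATGCGC stands in Cox6a1 and Atp5k, in each on both strands with the matches overlapping, and once in Uqcr11, which also holds the GABPA core CCGGAAGT. Atp5j2 holds the YY1 core AAGATGGCG.
Cox6a1, chr5:115348909-115349208, minus strand: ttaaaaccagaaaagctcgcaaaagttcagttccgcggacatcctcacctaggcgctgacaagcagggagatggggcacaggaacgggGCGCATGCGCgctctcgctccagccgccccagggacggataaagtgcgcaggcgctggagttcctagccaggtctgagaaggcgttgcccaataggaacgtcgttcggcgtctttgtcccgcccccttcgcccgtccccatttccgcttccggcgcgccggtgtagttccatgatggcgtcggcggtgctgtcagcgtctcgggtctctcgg
Atp5k, chr5:108434350-108434649, minus strand: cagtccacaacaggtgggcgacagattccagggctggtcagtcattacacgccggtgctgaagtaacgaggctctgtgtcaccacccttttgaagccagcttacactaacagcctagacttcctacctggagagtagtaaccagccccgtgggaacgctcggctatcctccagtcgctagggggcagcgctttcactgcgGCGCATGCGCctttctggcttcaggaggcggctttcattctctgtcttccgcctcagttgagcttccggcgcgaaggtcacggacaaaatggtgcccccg
Uqcr11, chr10:80406772-80407071, minus strand: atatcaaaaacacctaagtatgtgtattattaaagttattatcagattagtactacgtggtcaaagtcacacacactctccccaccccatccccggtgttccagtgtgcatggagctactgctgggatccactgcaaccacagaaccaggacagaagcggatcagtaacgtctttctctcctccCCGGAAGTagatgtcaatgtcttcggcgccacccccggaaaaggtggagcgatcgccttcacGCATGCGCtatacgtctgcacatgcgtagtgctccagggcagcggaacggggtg
Atp5j2, chr5:145191492-145191791, minus strand: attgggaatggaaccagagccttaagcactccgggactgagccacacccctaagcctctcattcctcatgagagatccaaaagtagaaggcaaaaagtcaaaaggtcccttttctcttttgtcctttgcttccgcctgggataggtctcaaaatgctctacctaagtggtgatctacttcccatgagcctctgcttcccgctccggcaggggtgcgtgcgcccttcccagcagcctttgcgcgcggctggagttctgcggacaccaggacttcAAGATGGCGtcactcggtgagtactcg
Searched on both strands, the NRF1 core was in the promoters of 7 of 37 members (18.9%) and of 3.05% of 27025 genes, with windows of the same length, the GABPA core in 4 (10.8%) and 4.31%, and the YY1 core in 3 (8.11%) and 1.64%. A match is a run of letters and not a shown binding site.

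With phenformin added to poly I:C, MT tumours differed from controls in 1 of 45 members, lower, where 3.33% of all genes were called lower and 2.81% higher (6.14% in all). The members' share did not exceed that of all genes. At an unadjusted p under 0.05, 10 members were lower and 3 higher, where 15.9% of all genes were lower and 13.9% higher. Fold changes were below 0 for 29 members, with a median of -0.08. The member called was Atp5f1, at 319, 269.7, 257 and 298 CPM in combination tumours, against the control values given above, a log2 fold change of -0.59 ± 0.13 (SE), with an adjusted p of 0.0321. This call was lost in 6 of 8 fits that left out 1 library, and 8 members were called without MT control replicate 4. It was also lost without the MT libraries above 10 CPM of Sox10 (log2 fold change -0.20, edgeR adjusted p = 0.955), with the Krt5/Sox10 ratio in the fit (-0.29, adjusted p = 0.388), with no filter on low counts (adjusted p = 0.0582) and with only the compared groups in the fit (adjusted p = 0.0928). The smallest p in each other complex fell to Cox4i1 with a log2 fold change of -0.39 ± 0.12 (SE), Uqcrb with -0.18 ± 0.09 and Sdhb, the iron-sulphur subunit of complex II, with 0.49 ± 0.18, at adjusted p-values of 0.0648, 0.204 and 0.0941. Sdhb had 133, 113, 103 and 143 CPM in the combination, against 69, 78.5, 93.7 and 111 CPM in controls, so that control replicates 1 to 3 lay below all combination libraries and replicate 4 among them. Macrophage markers summed to 483.8 to 1204 CPM in the combination and 310.6 to 413 CPM in controls, with 5 of 5 called higher, and 5 of 6 neutrophil markers were called higher. Their part in these values was not tested.

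Set directly against poly I:C alone, the combination had 0 of 45 members called, where 0% of all genes were called. Fold changes above 0 were found for 41 members, the median was 0.24 against 0.01 over all genes, and 15 had an unadjusted p under 0.05 and were higher, where 3.63% of all genes did so and 2.39% were lower. DESeq2 called 0 members and limma voom 7 (share of all genes not given). Cox6a1 had 110.2, 117, 99.5 and 127 CPM in the combination, against 93.5, 74.1, 84.7 and 84.7 CPM with poly I:C, without overlap, and a log2 fold change of 0.42 ± 0.11 (SE), with an adjusted p of 0.817. Atp5k, Uqcr11 and Sdhc had the smallest p in their complexes, with log2 fold changes of 0.33 ± 0.11, 0.32 ± 0.11 and 0.21 ± 0.11 (SE) and an adjusted p of 0.817 each. The interaction, which asks whether the combination departs from the sum of the single effects, had 0 calls with edgeR, DESeq2 and limma voom, a median of 0.40 and 21 members with an unadjusted p under 0.05, all positive, where 5.47% of all genes did so and 4.44% were negative. Its smallest p-values by complex fell to Cox6a1 (0.60 ± 0.15), Atp5j2 (0.53 ± 0.16), Cyc1 (0.49 ± 0.16) and Sdhc (0.40 ± 0.15), with adjusted p-values of 0.385 to 0.412. These comparisons share the poly I:C libraries.

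Phenformin alone gave no call in MT tumours, where 0% of all genes were called. The median over 45 members was -0.14, with 5 members lower and 1 higher at an unadjusted p under 0.05 (2.98% and 3.09% of all genes), and DESeq2 and limma voom also called 0. The members' log2 fold changes had a median SE of 0.14 in this comparison (0.09 to 1.63), so a missing call does not show that levels did not differ. The smallest p fell to Atp5l, for subunit g, at 18.2, 19.4, 20.2 and 18.6 CPM with phenformin, against 23.6, 31.4, 29.9 and 33.4 CPM in controls, a log2 fold change of -0.61 ± 0.17 (SE), with an adjusted p of 0.791. Cox5b, Cyc1 and Sdhc led the other complexes, with log2 fold changes of -0.28 ± 0.10, -0.23 ± 0.11 and -0.18 ± 0.11 (SE) and adjusted p-values of 0.811, 0.813 and 0.832. The combination against phenformin had 0 calls as well, where 0.106% of all genes were called. At an unadjusted p under 0.05, 5 members were higher and 2 lower (4.21% and 8.97% of all genes). DESeq2 called 0 members there and limma voom 10 (share of all genes not given). There, Cox5b, Uqcrc1, Atp5j and Sdhb had the smallest p in their complexes, with log2 fold changes of 0.33 ± 0.10, 0.30 ± 0.11, 0.22 ± 0.09 and 0.43 ± 0.18 (SE) and adjusted p-values of 0.261 to 0.334.

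In 4T1 tumours the members moved little. With poly I:C, 1 of 44 members tested was called lower and 0 higher, where 3.06% of all genes were called lower and 3.26% higher (6.32% in all). The members' share did not exceed that of all genes. At an unadjusted p under 0.05, 10 members were lower and 0 higher, where 11.9% of all genes were lower and 12% higher. Fold changes were below 0 for 36 members and the median was -0.12, against 0.01 over all genes. The call was Cox7a2l (chr17:83501918-83517330, minus strand), which helps join complexes III and IV into supercomplexes, at 180.4, 147, 173 and 159 CPM with poly I:C, against 190.3, 202, 217 and 250.2 CPM in controls. The groups did not overlap, and the log2 fold change was -0.36 ± 0.09 (SE), with an adjusted p of 0.0382. It was lost in 4 of 8 fits that left out 1 library, and also without the libraries above 10 CPM of Acta1 or those above 100 CPM of Igkc. Atp5c1, the gamma subunit of the central stalk, Sdhc and Uqcr11 had the smallest p in the other complexes, with log2 fold changes of -0.24 ± 0.08, -0.27 ± 0.10 and -0.36 ± 0.15 (SE) and adjusted p-values of 0.0688, 0.112 and 0.171. Control replicate 4 was the highest control for these genes except Atp5c1, with Cox6a1 at 117 CPM against 69.7 to 73.2 CPM in the other controls. The same library held 113.5 CPM of Igkc. Macrophage markers summed to 485.8 to 957.6 CPM with poly I:C and 1318 to 1745 CPM in controls, with 4 of 5 called lower, and fibroblast markers to 4923 to 12570 CPM with poly I:C and 3116 to 4822 CPM in controls, with 2 of 5 higher. Their part in the values was not tested.

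Phenformin alone in 4T1 tumours gave 0 calls of 44, where 0% of all genes were called, with 2 members higher and 1 lower at an unadjusted p under 0.05 (4.24% and 5.81% of all genes) and 0 calls by DESeq2 and limma voom. Most fold changes were above 0 (38 of 44, median 0.12). The smallest p went the other way, to Atp5g1, at 9.44, 8.81 and 7.03 CPM with phenformin, against 11.7, 11.1, 11.7 and 11.4 CPM in controls, a log2 fold change of -0.45 ± 0.15 (SE), with an adjusted p of 0.333. Cox6c, Sdhd and Uqcr10 led the other complexes at 0.33 ± 0.13, 0.25 ± 0.10 and 0.30 ± 0.16 (log2 fold change and SE), with adjusted p-values of 0.404, 0.433 and 0.572. The combination against control had 0 calls, where 0% of all genes were called, with 1 member higher and 1 lower at an unadjusted p under 0.05 (6.62% and 5.26% of all genes) and 0 calls by DESeq2 and limma voom. Its median was -0.01, and the smallest p by complex fell to Atp5g1 (-0.36 ± 0.14), Cox6a2 (2.46 ± 0.98), Cyc1 (-0.11 ± 0.11) and Sdhd (0.08 ± 0.10), with adjusted p-values of 0.317, 0.325, 0.749 and 0.813.

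Adding phenformin to poly I:C in 4T1 tumours gave 0 calls, where 0.246% of all genes were called. At an unadjusted p under 0.05 there were 7 members higher and 0 lower (10% and 9.53% of all genes). DESeq2 called 2 members and limma voom 4 (shares of all genes not given). Atp5c1 had 241, 242, 211 and 239.6 CPM in the combination, against 190.0, 184, 189 and 198 CPM with poly I:C, without overlap, and a log2 fold change of 0.29 ± 0.08 (SE), with an adjusted p of 0.0818. Cox7a2l, Uqcrfs1 and Sdhc followed at 0.31 ± 0.09, 0.18 ± 0.08 and 0.22 ± 0.10, with adjusted p-values of 0.112, 0.231 and 0.241. Against phenformin, the combination had 0 calls, where 0% of all genes were called, with 4 members lower and 0 higher at an unadjusted p under 0.05 (5.74% and 6.72% of all genes) and 0 calls by DESeq2 and limma voom. Atp5l2, Cox6c, Uqcrh and Sdhd led there at -0.46 ± 0.13, -0.32 ± 0.13, -0.41 ± 0.21 and -0.17 ± 0.10, with adjusted p-values of 0.241, 0.356, 0.425 and 0.513. The interaction had 0 calls by edgeR, DESeq2 and limma voom, 1 member positive and 1 negative at an unadjusted p under 0.05 (4.7% and 4.63% of all genes) and a median of 0.03, led by Atp5c1 (0.25 ± 0.11), Cox7a1 (-1.66 ± 0.80), Uqcrc1 (0.29 ± 0.16) and Sdhc (0.15 ± 0.15), with adjusted p-values of 0.527 to 0.779.

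Between the untreated models, told apart by the sample titles, the members differed widely. In 4T1 control tumours 32 of 47 members were called lower than in MT control tumours and 0 higher, where 25.2% of all genes were called lower and 26.7% higher (51.9% in all). The median log2 fold change was -0.61, against -0.005 over all genes. Calls covered 15 of 16 members of complex V, 8 of 9 of complex III, 8 of 16 tested of complex IV and 1 of 4 of complex II. For 32 members the 4T1 libraries lay wholly below the MT libraries, where 20.3% of all genes were wholly lower and 25.6% wholly higher.

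Complex V had the largest difference. Atp5h (chr11:115415689-115419962, minus strand), subunit d of the peripheral stalk, had 53.3, 50.3, 53 and 61.2 CPM in 4T1 controls, against 224, 245, 222 and 229.9 CPM in MT controls, a log2 fold change of -2.08 ± 0.15 (SE), with an adjusted p of 4.98e-11. Its near-identical copy Gm10250 averaged 61.8 ± 3.55 CPM in 4T1 and 262 ± 22.3 CPM in MT controls (SD, n = 4 each), and with the copy's counts added the log2 fold change of Atp5h was -2.08. Atp5e had 44.7, 57.3, 57 and 67.6 CPM in 4T1 controls, against 159.6, 209, 257 and 111 CPM in MT controls, a log2 fold change of -1.70 ± 0.27 (SE), with an adjusted p of 1.11e-05. The membrane subunit genes Atp5l and Atp5k had log2 fold changes of -1.26 ± 0.18 and -1.13 ± 0.13 (SE), with adjusted p-values of 2.98e-06 and 6.04e-08. The 2 large subunits of the catalytic head differed less, Atp5a1 at -0.83 ± 0.13 and Atp5b at -0.37 ± 0.12, with adjusted p-values of 1.13e-05 and 0.0101. The other called members of complex V, Atp5f1, Atp5g3, Atp5g1, Atp5o, Atp5d, Atp5j2, Atp5j, Atp5l2 and Atp5c1, ran from -0.88 to -0.39.

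Complex III followed, led by Cyc1 (chr15:76343523-76346260, plus strand), the haem-carrying cytochrome c1, at 38.2, 35.6, 36.5 and 50.9 CPM in 4T1 controls, against 81.8, 93.3, 91.2 and 80.6 CPM in MT controls, a log2 fold change of -1.11 ± 0.11 (SE), with an adjusted p of 1.46e-08. Uqcrq was lower still, at -1.31, and Uqcr11, Uqcrb, Uqcr10, Uqcrh, Uqcrc2 and Uqcrfs1 ran from -0.99 to -0.41. The core subunit gene Uqcrc1 stood apart from these, at 164 ± 16.9 CPM in 4T1 and 157 ± 10.3 CPM in MT controls (SD, n = 4 each) and an adjusted p of 0.684. In complex IV, Cox6b1 had 103, 108, 103 and 119 CPM in 4T1 controls, against 205, 228, 242 and 205 CPM in MT controls, a log2 fold change of -1.02 ± 0.09 (SE), with an adjusted p of 1.89e-09. Cox7c, Cox5a, Cox7a2, Cox6a1, Cox7b, Cox4i1 and Cox5b were also called, from -1.11 to -0.25, and Cox6c, at 0.04, Cox7a2l, at -0.14, and Cox8a, at -0.28, were not. In complex II only the anchor gene Sdhd was called, at -0.38 ± 0.11 with an adjusted p of 0.0064, while Sdha had 201 ± 16.3 CPM in 4T1 and 198 ± 19.3 CPM in MT controls.

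Leaving out the 6 MT libraries above 10 CPM of Sox10, 3 of them controls, left 1 MT control. That fit cannot decide whether the calls hold. Leaving out 1 control at a time gave 29 to 33 calls, with Atp5l2 lost in 3 of 8 fits and Cox5b and Uqcrh in 2 each. Macrophage and fibroblast markers also differed, with 5 of 5 and 4 of 5 called higher in 4T1 controls. Macrophage markers summed to 1318 to 1745 CPM in 4T1 controls and 310.6 to 413 CPM in MT controls, and fibroblast markers to 3116 to 4822 CPM in 4T1 controls and 609 to 1092 CPM in MT controls. Endothelial and mural markers were called higher in 5 of 6 cases, and neutrophil markers higher in 4 and lower in 1 of 6. Of 10 skeletal muscle markers 2 were higher, and of 4 plasma cell markers 1 was lower. The part of these cell types in the difference was not tested.

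**Figure D4:**
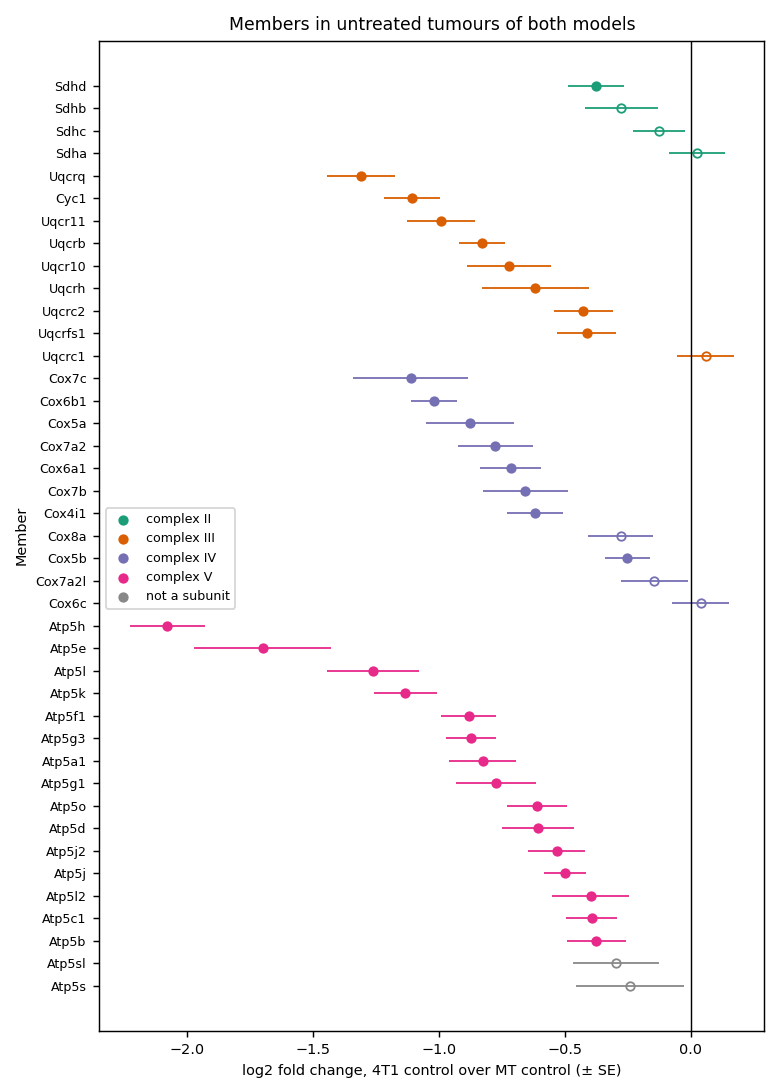
Log2 fold change of 4T1 control over MT control (horizontal axis) for 41 members (vertical axis), coloured by complex, with SE bars. Filled points were called at adjusted p under 0.05, and open points were not. Points of complexes III and V lie mostly left of 0, down to -2.08 for Atp5h, and Sdha, Uqcrc1 and Cox6c lie near 0.

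The poly I:C response itself differed between the models for 2 of 47 members, with 4T1 responses higher than MT responses, where 5.7% of all genes were called in this direction and 5.42% in the other (11.1% in all). The members' share did not exceed that of all genes, so the count is not a result about the members. Atp5f1 had a difference in log2 fold change (4T1 minus MT) of 0.77 ± 0.15 (SE), with an adjusted p of 0.00226. It averaged 222 ± 12 CPM with poly I:C and 234 ± 15.8 CPM in controls in 4T1 tumours, against 241 ± 13.3 CPM and 431 ± 72.4 CPM in MT tumours (SD, n = 4 each). Cox6b1 had a difference of 0.40 ± 0.13 (SE), with an adjusted p of 0.0445. Uqcrb and Sdhb led complexes III and II at 0.37 ± 0.13 and -0.46 ± 0.21, with adjusted p-values of 0.0708 and 0.149. Without the MT libraries above 10 CPM of Sox10, 0 members were called. The 2 calls also depended on single libraries, with 1 to 8 members called when 1 was left out, and Cox6b1 lost in 11 of 16 such fits. In the same difference 5 of 5 macrophage markers were called lower, with a median of -2.58, as were 3 of 6 endothelial and mural markers and 1 of 5 fibroblast markers, while 1 of 6 neutrophil markers was higher. Their part in the difference was not tested.

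The combination response differed for Atp5f1 only, at 0.52 ± 0.15 (SE), with an adjusted p of 0.0485, where 2.26% of all genes were called in that direction and 2.29% in the other (4.56% in all). A single call among 47 members is near the share of all genes. That call was lost in 14 of 16 fits that left out 1 library. It was also lost without the MT libraries above 10 CPM of Sox10 (a difference of 0.12, edgeR adjusted p = 0.817), without the 4T1 libraries above 10 CPM of Acta1 (adjusted p = 0.22), with no filter on low counts (adjusted p = 0.0895), with a replicate block (adjusted p = 0.064) and with library totals (adjusted p = 0.0955), whereas DESeq2 gave an adjusted p of 0.00871 and limma voom 1.52e-05. In this difference 4 of 5 macrophage and 2 of 6 neutrophil markers were called lower and 2 of 10 skeletal muscle markers higher, and their part in it was not tested. Cox4i1, Sdhb and Uqcrb led the other complexes at 0.32 ± 0.16, -0.49 ± 0.21 and 0.23 ± 0.13, with adjusted p-values of 0.201, 0.139 and 0.264. The phenformin response gave 0 calls by edgeR, DESeq2 and limma voom, where 0% of all genes were called, although 44 of 47 differences were above 0 with a median of 0.27, and 11 had an unadjusted p under 0.05 and were positive (3.66% of all genes, with 3.7% negative). Atp5l, Cox6c, Sdhd and Uqcrfs1 led there at 0.84 ± 0.26, 0.44 ± 0.17, 0.39 ± 0.16 and 0.33 ± 0.17, with adjusted p-values of 0.42 to 0.71.

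Complex IV has isoforms restricted to certain tissues, and all 7 were low in every group. Cox7b2 and the testis isoform gene Cox8c had 12 and 4 counts over the 31 libraries. Where a library had 0 counts, the limit of 3 counts corresponds to 0.151 to 0.247 CPM by depth, counting error only. Cox6b2 stayed between 0 and 1.3 CPM. Cox4i2, a subunit IV isoform known from lung and linked to oxygen sensing, had 1.07 to 4.47 CPM in 4T1 poly I:C tumours, the group with the widest range, and 1.34 to 1.99 CPM in 4T1 controls. Its log2 ratio to Cox4i1 had medians between -8.25 in MT controls and -6.84 in MT poly I:C tumours.

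The muscle isoform genes had low counts, with the highest in single libraries. Cox6a2, the heart and skeletal muscle subunit VIa, had 59, 2, 3 and 19 counts in the 4T1 combination libraries and 8, 1, 6 and 2 counts in 4T1 controls. Skeletal muscle markers summed to 886, 55.1, 34.8 and 645.4 CPM in the same combination libraries and to 23.7 to 29.5 CPM in 4T1 controls. Without the 4T1 libraries above 10 CPM of Acta1 no member was called in this comparison. With all libraries 0% of all genes were called, so this missing call says nothing about Cox6a2. The part of muscle in its counts was not tested. Cox8b, for the muscle and brown fat subunit VIII, had 199, 1, 3 and 17 counts in MT combination, 1, 55, 5 and 10 in MT poly I:C, 15, 5, 1 and 29 in MT phenformin and 2, 0, 3 and 2 in MT control libraries. The highest libraries of the combination and poly I:C groups were combination replicate 1 and poly I:C replicate 2. In those libraries Ucp1, the brown fat uncoupling protein, was at 18 and 1.39 CPM. It was also at 2.33 CPM in MT phenformin replicate 1 and 1.25 CPM in MT poly I:C replicate 4, where Cox8b was at 1.06 and 0.567 CPM. In MT phenformin replicate 4, the highest of its group for Cox8b, Ucp1 was at 0.74 CPM. Skeletal muscle markers summed to at most 10.4 CPM in MT combination, 5.77 CPM in MT poly I:C, 12.3 CPM in MT phenformin (replicate 4) and 10.7 CPM in MT control libraries. The part of muscle or brown fat in the Cox8b counts was not tested. Cox7a1, the muscle subunit VIIa, was highest in MT combination replicate 1, at 2.99 CPM, against 0.134 to 2.2 CPM in MT controls. None of these isoforms was called in a comparison that tested it. Cox7b2 and Cox8c did not pass the filter on low counts in any fit. Cox6b2 and Cox8b were not tested in the 4T1 fit, nor Cox6a2 in the MT fit.

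**Figure D5:**
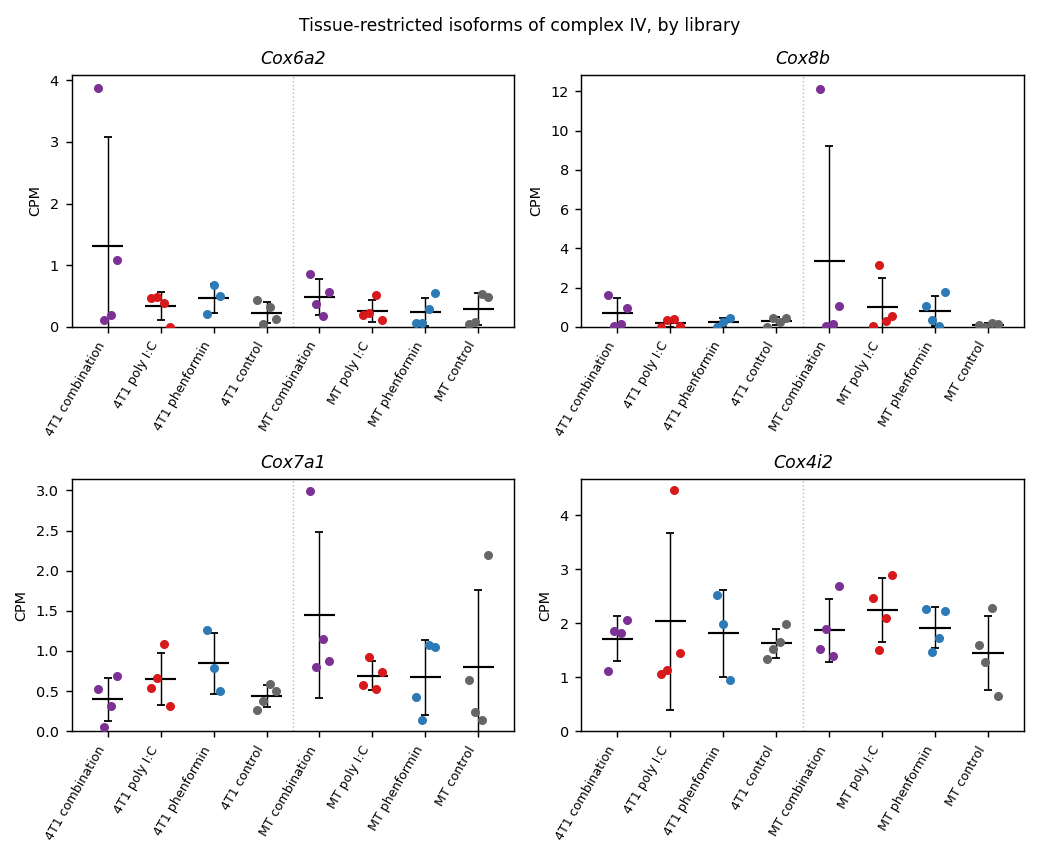
CPM (vertical axis) of 4 tissue-restricted isoforms of complex IV in the 8 groups (horizontal axis). Points are libraries, horizontal lines means and error bars SD. The highest values stand in single libraries, 3.88 CPM of Cox6a2 in a 4T1 combination and 12.1 CPM of Cox8b in an MT combination library.

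Related gene lists were read beside the members. Of 36 complex I subunits, which phenformin's target is built from, 25 were lower and 0 higher with poly I:C in MT tumours, with a median log2 fold change of -0.50, where 11.1% of all genes were called lower. The smallest p-values fell to Ndufa3 (-0.65 ± 0.09, SE) and Ndufa2 (-0.97 ± 0.14), at adjusted p-values of 0.00157 and 0.00163. Of 32 assembly factors of complexes II to V, 5 were lower and 0 higher, a share near the 11.1% of all genes. Coa6, a copper factor of complex IV, had 11.6, 11.2, 10.7 and 8.91 CPM with poly I:C, against 16.2, 18.3, 20.5 and 15.6 CPM in controls, a log2 fold change of -0.72 ± 0.15 (SE) and an adjusted p of 0.00718. Uqcc1, needed to make cytochrome b, had 23.8, 21.9, 21.7 and 25.9 CPM with poly I:C, against 52.6, 55.5, 51.5 and 25.1 CPM in controls, where control replicate 4 lay within the poly I:C range. Of 11 mobile carriers and related genes tested, 4 were lower and 0 higher. Of 14 regulators, 1 was lower, again near the share of all genes, Esrrb, an oestrogen-related receptor, at 0.191, 0.115, 0.175 and 0.227 CPM with poly I:C and 4.46, 3.99, 4.02 and 0.57 CPM in controls, again with control replicate 4 apart.

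Between untreated models, where 25.2% of all genes were called lower and 26.7% higher in 4T1 controls (51.9% in all), 30 of 36 complex I subunits were lower and 2 higher, with Ndufa5 at -1.39 ± 0.12 and Ndufs5 at 3.29 ± 0.28 (SE), adjusted p-values 8.15e-10 and 8.42e-10. Among the 32 assembly factors 12 were lower and 4 higher. In all this was near the share of all genes called, but lower calls outnumbered higher ones, unlike over all genes. Cox10, a haem-making enzyme, was at -0.84 ± 0.13 and Lyrm7, a Rieske protein chaperone, at 1.46 ± 0.23, adjusted p-values 8.23e-06 and 7.22e-06. Of the 11 carriers 6 were lower and 1 higher. Among the 14 regulators 2 were lower and 3 higher. Ppargc1a, the coactivator PGC-1 alpha that drives mitochondrial gene expression, had 0.484, 0.382, 0.266 and 0.559 CPM in 4T1 controls, against 6.48, 6.22, 3.35 and 16.4 CPM in MT controls, with an adjusted p of 3.81e-06. In MT poly I:C tumours, where the called subunit genes were lower than in controls, Ppargc1a had 17.1, 16.7, 9.61 and 21.9 CPM. These values lay above MT control replicates 1 to 3, and replicate 4 lay within their range. Pprc1, a relative of Ppargc1a, had 112, 74, 94.1 and 97.5 CPM in 4T1 controls, against 56.3, 62.4, 62.6 and 57.4 CPM in MT controls, and a log2 fold change of 0.66 ± 0.11 (SE) with an adjusted p of 2.57e-05. In 4T1 tumours 1 regulator, the mitochondrial transcription factor gene Tfb2m, was lower with poly I:C, at -0.44 ± 0.11 (SE) with an adjusted p of 0.0284. So was 1 complex I subunit, Ndufb11, at -0.44 ± 0.12 (SE) with an adjusted p of 0.0382. Of 6 mitochondrial-DNA-encoded partners, mt-Co1 and mt-Cytb were tested and were not called, mt-Co1 having 4728, 13160.0, 4933 and 5171 CPM in MT poly I:C and 6695, 3852, 7966 and 8006 CPM in MT control tumours. The other 4, encoded by the same mitochondrial DNA, were at or near 0 counts in every library. Such counts do not show that these transcripts were absent from the tumours, and their reason was not tested.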

How the data were processed

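Raw gene counts deposited by the authors were used. Per the submitters' processing notes, Trimmomatic (0.32.48), STAR (2.3.0) and featureCounts (1.4.4) were applied with the mm10 and GRCm38 builds. Libraries were strand-specific per the labels' protocols. Members and gene lists were chosen with earlier results of these data known. Genes were filtered with filterByExpr (minimum count 10, minimum total 15), scaled by TMM and tested with edgeR 4.0.16 (glmQLFit, glmQLFTest), with Benjamini-Hochberg adjustment over all genes tested and calls at adjusted p under 0.05. There was 1 fit per model (15 and 16 libraries) and 1 joint fit over 31 libraries for 4T1 against MT. Printed CPM values use TMM-scaled totals of the joint fit. DESeq2 1.42.0 and limma 3.58.1 voom with quality weights were alternatives, with R 4.3.3. The code was tested on simulated data. A first criterion, on the share of planted fold changes recovered, was missed in MT under both ways of simulating that were tried, and the test was then judged on bias, sign and false calls instead. Fewer planted fold changes were recovered in MT than in 4T1, so the power of the MT comparisons is limited. Text names called members, the smallest p per complex and comparison, tissue-restricted isoforms, extreme levels per length, and up to 2 called genes of each other list. Uncalled subunits set beside called ones (Cox5a, Cox5b, Cox7b, Atp5b, Sdha, Sdhb, Uqcrc1, Uqcrc2), Ucp1, mt-Co1 and the MT poly I:C values of Ppargc1a were chosen after their values were seen. Coordinates are GENCODE M21 (GRCm38). Depth ranged from 12160110 to 19849915 counts.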

Additional observations from a re-analysis of the deposited data

Results flagged for a closer look

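Within groups of 4, 23 of 333 tests of a single library's distance from the others (6.91%) exceeded the critical value, where chance flags about 1 in 20. In 4T1 controls, replicate 4 was far above the others for Cyc1 (50.9 CPM), Uqcrb (50.8 CPM), Cox6a1 (116.5 CPM), Cox8a (131.4 CPM), the summed complex V (2936 CPM) and the sum over complexes II to V (5641 CPM). Replicate 1 was low there for Cox6c (126.5 CPM) and Atp5sl (11.5 CPM). In 4T1 poly I:C tumours, replicate 3 was high for Cox4i2 (4.47 CPM), Cox7a2 (106.3 CPM), Cox7b (131.0 CPM) and Atp5k (43.1 CPM), and replicate 2 for Atp5g1 (12.6 CPM). In 4T1 combination tumours, replicate 3 was low for Atp5c1 (210.8 CPM), Atp5f1 (203.2 CPM) and Atp5g3 (129.4 CPM).

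In MT tumours, combination replicate 1 was high for Cox7a1 (2.99 CPM), Cox8b (12.1 CPM) and Atp5sl (27.5 CPM), and poly I:C replicate 2 was high for Cox8b (3.17 CPM). Uqcrq was low in phenformin replicate 1 (59.2 CPM) and control replicate 1 (60.9 CPM), and Cox7a2l was low in control replicate 1 (203.2 CPM).

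The response to treatment differed between the models by a test of the difference itself for 3 values, each 4T1 minus MT on the log2 scale and higher in 4T1. They were Atp5f1 (0.77) and Cox6b1 (0.40) for poly I:C and Atp5f1 (0.52) for the combination. In this direction 5.7% of all genes were called for poly I:C and 2.26% for the combination. The calls, 2 and 1 of 47 members, did not exceed these shares. With 1 library left out, Cox6b1 was lost in 11 of 16 fits, and Atp5f1 for the combination in 14 of 16.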

How the results depend on the processing

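No called value changed sign under the alternatives run. Leaving out 1 library at a time gave 13 to 17 calls for MT poly I:C, 0 to 8 for MT combination against control (8 without control replicate 4), 29 to 33 for 4T1 against MT controls, 0 to 2 for 4T1 poly I:C, 0 to 1 for 4T1 combination against poly I:C (1 without poly I:C replicate 4), 1 to 8 for the difference in poly I:C response, 0 to 3 for that in combination response, and 0 throughout elsewhere. For MT poly I:C (15 calls), limma voom with quality weights gave 31, and leaving out libraries above 10 CPM of Sox10 gave 0. For MT combination against control (1 call), DESeq2 gave 7, voom 22, and no filter, only the groups compared, the Sox10 limit and the Krt5 to Sox10 covariate 0 each. For 4T1 poly I:C (1 call), DESeq2 and voom gave 2 each, and no filter, only the groups compared, and the Acta1 and Igkc limits 0 each. Voom gave 7 calls for MT combination against poly I:C, 10 against phenformin and 4 for 4T1 combination against poly I:C, where DESeq2 gave 2 (0 each with edgeR). For the difference in poly I:C response (2 calls), DESeq2 gave 5, voom 16, no filter, library totals and the Acta1 limit 1 each, and the Sox10 limit 0. For that in combination response (1 call), voom gave 12, and no filter, library totals and the Sox10 and Acta1 limits 0 each. The share of all genes called under these alternatives was not set beside the counts, here or above. A larger or smaller count is therefore not a result about the members alone. The causes were not tested.

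Correlations of same-numbered libraries' deviations exceeded 0.1 in 6 of 21 pairs in 4T1 (median -0.054, -0.506 to 0.208) and in 12 of 24 in MT (median 0.103, -0.806 to 0.78, against a median of 0.004 for other numbers), and 1 of 15 and 7 of 16 libraries correlated best with their own number. Since not every pair exceeded 0.1, numbers were not taken as pairs. With a replicate block, calls were 1 for the difference in poly I:C response, 0 for that in combination response, 30 for 4T1 against MT controls and 15 for MT poly I:C, and no other count changed. Library totals without scaling factors moved the median of all genes to -0.10 in the poly I:C response and -0.15 in the combination response, and the share of calls that were higher to 35.9% and 32.6% from 51.2% and 49.7%, and in MT combination against control to 60.6% from 45.7%. Library totals, added pseudogene copies and the joint fits without Sox10 or Acta1 libraries were chosen after seeing the data. Counts of a few reads limit Cox7b2, Cox8c, Cox6b2 and Atp5g2.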
